A study of Mus musculus with 2 samples.

Results

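The genes described here encode the parts of the 26S proteasome, the activators that cap it and the chaperones that assemble it. They were chosen by name: every non-control probe whose gene name was Psma, Psmb, Psmc, Psmd, Psme, Psmf or Psmg followed by a number, leaving out the interferon-inducible catalytic subunits Psmb8, Psmb9 and Psmb10. This gave 73 probes for 46 genes, of 19713 named genes on the array. By role they were 8 alpha and 8 beta subunits of the core particle, 9 subunits of the base and 8 of the lid of the regulatory particle, 5 activators or regulators, 7 assembly chaperones, and Psmc3ip. The last is a partner of meiotic recombinases whose name fits the pattern although it is not a proteasome subunit. It belongs to no class below, but it is counted in the values over all members, which are also given without it.

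The proteasome degrades proteins that carry ubiquitin chains. Its core is a barrel of stacked alpha and beta rings with the proteolytic sites inside, and its regulatory particle holds ubiquitin receptors, a ring of ATPases that unfold the substrate, and a lid that removes ubiquitin. In mammalian cells the transcription factor NRF1, encoded by Nfe2l1, is known to raise transcription of most subunit genes together when proteasome activity is limiting. Fibroblasts, like other nucleated cells, depend on it for protein turnover and the cell cycle.

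Expression was measured in cells stably carrying MARVELD1, a MARVEL-domain protein, on the plasmid pcDNA3.1 (labelled pcDNA3.1-MARVELD1), and in cells stably carrying the empty pcDNA3.1 vector. Both were NIH3T3, an established mouse embryonic fibroblast line, grown alike and selected with G418, against which the plasmid carries a resistance gene. Whether each line was 1 clone or a pool is not given in the sources used here, nor are the species and extent of the insert. Each line was measured on 1 single-colour Agilent whole-genome array, so there are no replicates, no test and no p-value, and the number of arrays limits the precision of every difference given.

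On the array labelled MARVELD1 68.6% of probes were well above background, against 68.5% on the empty vector array. Marveld1 itself was not higher under its label: its brighter probe read 6293 on the MARVELD1 array and 8725 on the empty vector array, a log2 difference of -0.34, and its dimmer probe read 126 and 184, a difference of -0.42. Probes outside the insert would check nothing, and every direction below is that of the label. All 10 fibroblast markers were detected on both arrays, with Vim at 114179 on the MARVELD1 array and 107830 on the empty vector array. Their median log2 difference was -0.43, and 2 of the 10, Vim (0.21) and S100a4 (0.25), lay above the median of all genes. Past 2-fold, 2 were lower and 0 higher, where 3.53% of all genes were lower and 5.39% higher. The 2 lower were Pdgfrb (3977 and 18671, -2.10) and Fn1 (4086 and 9717, -1.12). Of the markers of other cell types, the epithelial genes Epcam and Cdh1 and the muscle gene Des were not above background on either array. The epithelial gene Krt8 read 211 on the MARVELD1 array and 219 on the empty vector array, and Krt18 was above background on the MARVELD1 array only (78.7 and 19.4, at least 2.35-fold higher). The muscle genes Myod1 (761 and 540, a difference of 0.62) and Myog (418 and 315, 0.53) were higher in MARVELD1 cells. Of the endothelial genes Cdh5 was lower (708 and 1289, -0.74) and Kdr read 158 and 152, while Pecam1 was above background on the MARVELD1 array only (43.0 and 31.9). All 4 leukocyte markers were above the median of all genes, with a median of 0.51, but the defining marker Ptprc read 52.2 and 41.1, near the lowest signals counted as above background (36.0 on the MARVELD1 array and 36.5 on the empty vector array). The part of these shifts in the proteasome values was not tested.

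Values below are processed signals, a linear fluorescence intensity, and differences are log2 of MARVELD1 over empty vector after each signal was divided by the 75th percentile of its array, 703 on the MARVELD1 array and 768 on the empty vector array. A gene is represented by its brightest probe. On this scale the median of 16532 detected genes was not at 0 but at 0.19, so each class is also set against that median. In RNA from whole cultures, a change in the amount of a transcript per cell and a change in the share of cells that carry it cannot be told apart.

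The proteasome results rest on single probes of 60 bases, so 11 of them are shown: those with the largest difference in each direction, some pairs whose ends disagreed, and the one left out, 5' to 3' as printed on the array, with the positions in the files (mouse build mm9). No base is marked, because no annotation of that build was used and exon boundaries inside the probes are not known. Psmd13 and Psmb2 had the largest differences in each direction among all 45 members with a value, each from its only probe (chr7:148072461-148072928 and chr4:126361456-126364299, both longer than the probe, so both cross a splice junction).
Psmd13 A_52_P50512: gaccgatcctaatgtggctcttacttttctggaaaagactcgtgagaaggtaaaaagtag
Psmb2 A_51_P404084: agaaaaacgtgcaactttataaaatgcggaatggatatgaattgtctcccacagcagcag

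The next 8 probes are pairs from 4 of the genes of the base and lid, chosen as examples and not as the widest gaps of all members, in which a probe towards the 3' end was higher in MARVELD1 cells and a probe towards the 5' end was lower. They lie at chr11:106124192-106124376 and chr11:106122563-106122762 for Psmc5, at chr11:107358963-107359022 and chr11:107347092-107347728 for Psmd12, at chr16:20663260-20663319 and chr16:20660170-20660469 for Psmd2, and at chr2:61635507-61638090 and chr2:61599058-61599117 for Psmd14, all on the plus strand.
Psmc5, 3' probe A_52_P657435: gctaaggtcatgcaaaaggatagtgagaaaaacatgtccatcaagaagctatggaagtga
Psmc5, 5' probe A_51_P232355: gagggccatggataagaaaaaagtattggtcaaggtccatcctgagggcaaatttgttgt
Psmd12, 3' probe A_52_P574190: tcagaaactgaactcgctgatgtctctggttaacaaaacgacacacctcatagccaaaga
Psmd12, 5' probe A_52_P134381: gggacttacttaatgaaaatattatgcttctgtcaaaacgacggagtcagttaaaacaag
Psmd2, 3' probe A_52_P163978: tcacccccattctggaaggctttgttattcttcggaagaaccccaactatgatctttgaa
Psmd2, 5' probe A_52_P363920: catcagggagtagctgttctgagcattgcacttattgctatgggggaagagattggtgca
Psmd14, 3' probe A_51_P143737: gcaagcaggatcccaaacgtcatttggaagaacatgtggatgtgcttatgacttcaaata
Psmd14, 5' probe A_52_P652212: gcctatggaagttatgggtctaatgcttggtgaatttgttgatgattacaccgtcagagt

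The only probe of Psma6 (chr12:56511127-56511186) is shown because its value could not be used.
Psma6 A_51_P428364: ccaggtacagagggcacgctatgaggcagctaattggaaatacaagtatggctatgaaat

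Most proteasome genes were slightly higher in MARVELD1 cells, and few were far from the rest of the genome. The median log2 difference of the 45 members with a value was 0.42, which is 0.23 above the median of all genes, and 31 of the 45 (68.9%) lay above that median. Without Psmc3ip these values were 0.41, 0.22 and 30 of 44. With Psmc3ip, 27 of 45 (60.0%) lay above the median of all genes after quantile normalization. After loess 28 (62.2%) did so, and 29 (64.4%) with the mean of all detected probes. These were the lowest shares among the settings. The middle of the members, between quartiles of 0.16 and 0.60, overlapped that of all genes, between -0.14 and 0.49. Past 2-fold, 2 members were higher (Psmd13 and Psmf1) and 0 were lower, where 5.39% of all genes were higher and 3.53% lower. Past 3-fold, 1 (Psmd13) was higher and 0 were lower, where 1.21% of all genes were higher and 1.31% lower. Past 1.5-fold, 12 members were higher and 1, Psmb2, was lower, where 19.4% of all genes were higher and 8.96% lower. Without Psmc3ip 11 were higher past 1.5-fold. The count of 2 is close to what the share among all genes gives for a list of this length, and that of 12 is somewhat above it.

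That split depended on scaling. Past 1.5-fold, 7 members were higher with arrays scaled to their medians, 6 after quantile normalization and 5 after loess, with 1 lower each time. In these settings 14.1%, 13.3% and 11.9% of all genes were higher and 11.7%, 11.4% and 12.7% lower. The 5 left after loess were Psmd13, Psmf1, Psmc5, Psmd3 and Psmc3ip, and they were past 1.5-fold under each of these scalings. The median of all genes was 0.08, 0.07 and 0.04 in these settings, and the members stood 0.23, 0.11 and 0.14 above it.

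The technical spread sets the scale for single genes. Each member's probe was a single spot, and the reading program's error on a difference between bright spots was 0.20 on the log2 scale. Among 72 probes printed 10 times with signals over 1000 on both arrays, this difference varied between spots with an SD of 0.12, and over all 245 such probes the SD was 0.36. Different probes of 1 gene disagreed more, with an SD of 0.54 over 5486 genes and 0.48 over 17 members with at least 2 measured probes. These are spreads within 1 array pair and say nothing of the spread between cultures.

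**Figure D1:**
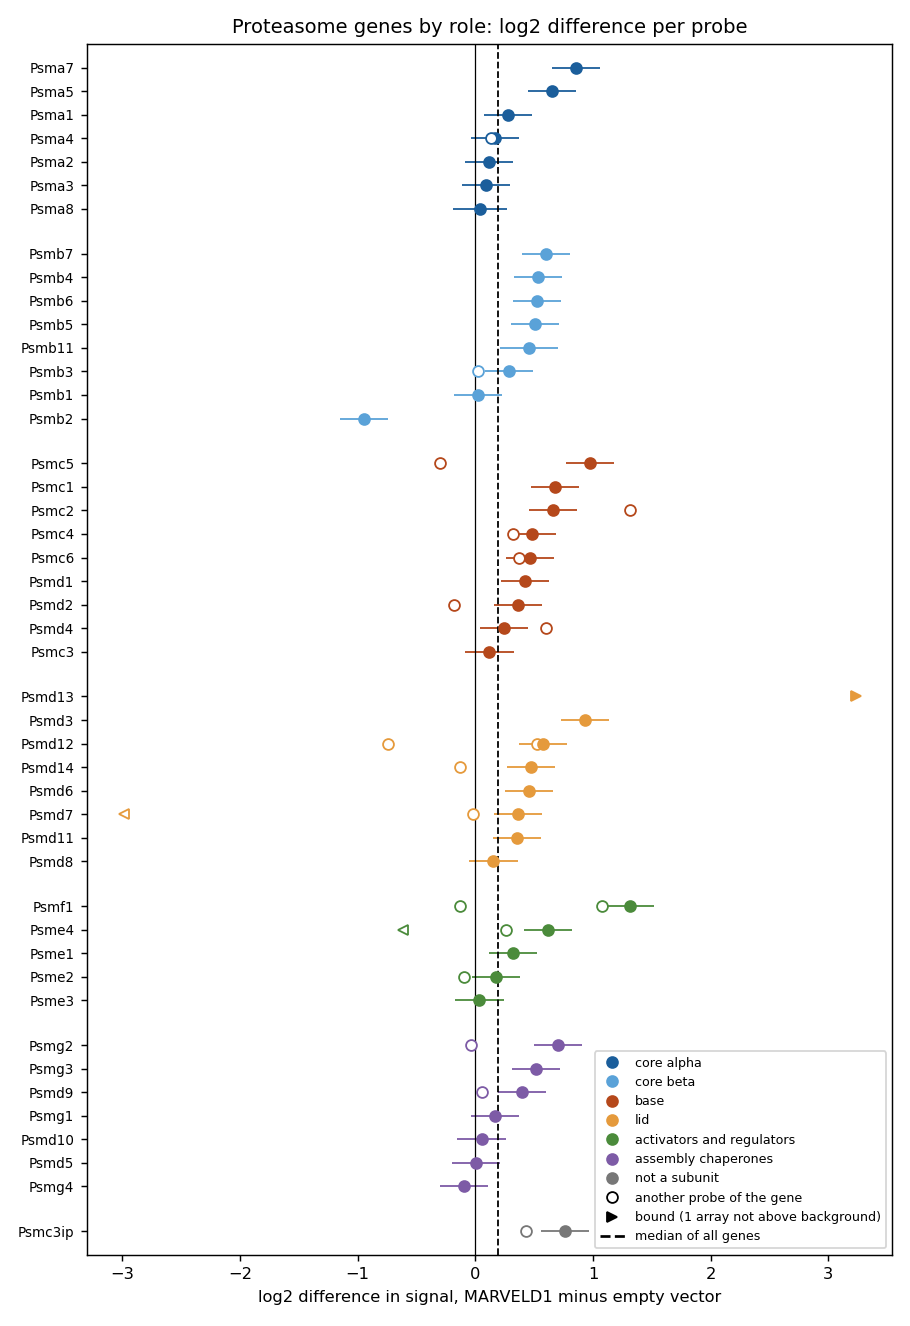
Log2 difference in signal (MARVELD1 minus empty vector, horizontal axis) of each proteasome gene, by role; filled points are the probe that stands for the gene, with the reading program's error as a bar, open points are its other measured probes, and triangles are bounds. Most filled points lie between 0 and 1, around or right of the dashed median of all genes at 0.19, with Psmd13 far right and Psmb2 at -0.95.

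Among the alpha subunits, which form the outer rings and the gate of the core, 3 of 7 lay above the median of all genes and the class median of 0.16 was close to it (-0.025 relative to it). Psma7 read 61935 in MARVELD1 cells and 37325 in empty vector cells, a log2 difference of 0.86, and Psma5 read 49816 and 34538, a difference of 0.66. These were the only alpha subunits past 1.5-fold, and neither has a second probe. Relative to the median of all genes they stood at 0.67 and 0.47, on either side of the SD of 0.54 between probes of a gene. The other constitutive subunits differed little. Psma1 read 30516 in MARVELD1 cells and 27498 in empty vector cells (0.28), Psma2 35423 and 35628 (0.12), Psma3 6364 and 6539 (0.09), and Psma4 5239 and 5109 (0.16), with 0.13 from the other probe of Psma4. Psma8, the testis-specific alternative to Psma7, read 170 in MARVELD1 cells and 181 in empty vector cells, the lowest difference of the class at 0.04. All of these 5 lay closer to the median of all genes than the reading program's error on a difference.

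Psma6 was the one member without a usable value. Its only probe read 1551 ± 155 on the MARVELD1 array and 9676 ± 968 on the empty vector array (the reading program's errors), but the spot on the MARVELD1 array was marked as non-uniform by that program and left out. The authors' deposited table keeps it, at a log2 difference of -2.63. No other probe of Psma6 was among the 73, so its level was not settled here. A further probe at the Psma3 locus, filed under a cDNA clone name and so outside the rule, read 864 in MARVELD1 cells and 921 in empty vector cells, a difference of 0.04, close to that of the Psma3 probe.

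Among the beta subunits, which form the inner rings, 6 of 8 lay above the median of all genes, and the class median was 0.48, or 0.29 above it. After quantile normalization, loess and normexp correction it was 0.17, 0.16 and 0.12 above it. The constitutive catalytic subunits read alike. Psmb5, with the chymotrypsin-like site, read 16561 in MARVELD1 cells and 12734 in empty vector cells (0.51). Psmb6, with the caspase-like site, read 31800 and 24154 (0.52), and Psmb7, with the trypsin-like site, 6810 and 4905 (0.60), the highest of the class. Thus all 3 catalytic subunits lay 0.32 to 0.41 above the median of all genes, by single probes. Of the non-catalytic subunits, Psmb4 read 56615 in MARVELD1 cells and 42736 in empty vector cells (0.53), Psmb3 63718 and 57013 (0.29, and 0.03 from its other probe), and Psmb1 12244 and 13132 (0.03).

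Psmb2, a non-catalytic beta subunit, stood apart from its class. It read 3657 in MARVELD1 cells and 7700 in empty vector cells, a log2 difference of -0.95 or 1.93-fold lower, and relative to the median of all genes it was 2.20-fold lower. Members below 0 were 2 on this scale, Psmb2 and Psmg4, but 8 with array-median scaling, 11 after quantile normalization and 15 after loess. In the authors' deposited table its difference was -1.06. No second probe of Psmb2 was on the array to set beside this one. Psmb11, the thymus-specific catalytic subunit, read 124 in MARVELD1 cells and 99.3 in empty vector cells (0.45), and its other probe was not above background on either array.

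The base of the regulatory particle, which docks on the core, had 8 of 9 members above the median of all genes and a class median of 0.46, or 0.27 above it. The distance was 0.15 after quantile normalization, 0.14 after loess and 0.14 after normexp correction. Of its 6 ATPases, which form the ring that unfolds substrates, 5 lay above the median of all genes, with a median of 0.57. Psmc5 was the highest of the class, at 10202 in MARVELD1 cells and 5666 in empty vector cells, a difference of 0.98. Its 5' probe, shown above, had the opposite sign, at 1124 and 1512, a difference of -0.30, so the gene's value depends on the probe. Psmc1 read 13678 in MARVELD1 cells and 9360 in empty vector cells (0.67), by its only probe. Psmc2 read 18070 and 12498 (0.66). Its dimmer probe, filed under a cDNA clone and not under the gene's RefSeq transcript, read 320 and 141 (1.31). Whether the dimmer probe reads the same transcript is not known here. Psmc4 read 21633 in MARVELD1 cells and 16944 in empty vector cells (0.48, and 0.32 from the other probe), and Psmc6 17635 and 13997 (0.46, and 0.37). Psmc3 was the lowest of the base, at 3102 in MARVELD1 cells and 3117 in empty vector cells (0.12).

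Of the non-ATPase subunits of the base, Psmd1, a scaffold that binds further ubiquitin-processing factors, read 6005 in MARVELD1 cells and 4898 in empty vector cells (0.42). Psmd2, the other large scaffold, read 28212 and 23925 (0.37), while its 5' probe read 1539 and 1903 (-0.18). Psmd4, a ubiquitin receptor, read 3699 in MARVELD1 cells and 3419 in empty vector cells (0.24), and 0.60 from a dimmer probe at 298 and 215.

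The lid, which holds the deubiquitinating subunit, had 7 of 8 members above the median of all genes, with a class median of 0.47, or 0.28 above it. That became 0.12 after quantile normalization, 0.15 after loess and 0.12 with the mean of all probes. Psmd3 read 35801 in MARVELD1 cells and 20503 in empty vector cells, a difference of 0.93, the highest in the lid measured on both arrays. Psmd14, the metalloprotease that cleaves ubiquitin from substrates, read 13981 and 10971 (0.48), but its 5' probe read 1989 and 2380 (-0.13). Psmd12 read 30514 in MARVELD1 cells and 22371 in empty vector cells (0.58), and a nearby second probe read 2306 and 1753 (0.52), whereas the probe farther 5' read 307 and 562 (-0.74). Psmd6 read 11851 in MARVELD1 cells and 9454 in empty vector cells (0.45) and Psmd11 16037 and 13679 (0.36), with 2 further Psmd11 probes not above background. Psmd8 was the lowest of the lid, at 13339 in MARVELD1 cells and 13090 in empty vector cells (0.15).

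Psmd7, an inactive partner of Psmd14, differed between its 3 probes. Its brightest probe read 29507 in MARVELD1 cells and 25014 in empty vector cells (0.37), and a second 2721 and 3012 (-0.02). The probe farthest 5', A_52_P171993, was not above background in MARVELD1 cells, at 8.56, and read 312 in empty vector cells, a bound of -2.99. It is filed under a cDNA clone, and the other probes of Psmd7 under the gene's RefSeq transcript. With the mean of all 3 probes the gene stood at -0.88.

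Psmd13, a structural lid subunit, had the largest difference of all members, from a dim probe. Its only probe was well above background in MARVELD1 cells, at 332 ± 34.9, and not in empty vector cells, at 38.5 ± 10.6 (the reading program's errors). The scaled readings differed 9.41-fold. This was counted as a bound because the empty vector reading was not well above background. With an error of 0.43 on the log2 difference, the fold could also be smaller. Normexp background correction with quantile normalization gave a log2 difference of 1.73 in place of 3.23. The probe crosses a junction, and no other Psmd13 probe was on the array to show whether the rest of the gene did the same.

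In the core particle 9 of 15 members lay above the median of all genes, with a median log2 difference of 0.29, and in the regulatory particle 15 of 17 (88.2%), with a median of 0.46. The 2 ranges overlapped, from -0.95 to 0.86 in the core and from 0.12 to the bound of 3.23 in the regulatory particle. With 1 array per line no test of that difference between classes was possible.

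**Figure D2:**
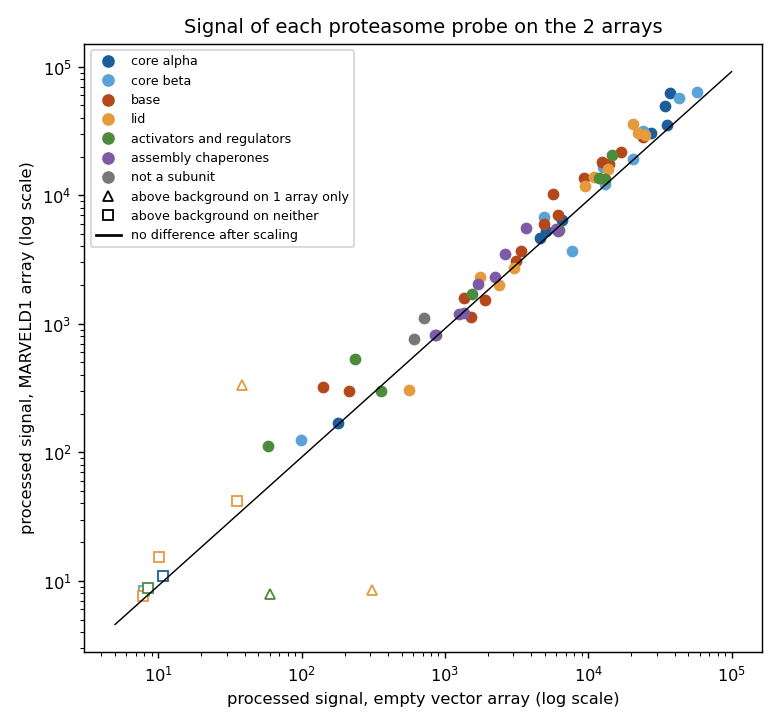
Processed signal of each proteasome probe on the MARVELD1 array (vertical, log scale) against the empty vector array (horizontal, log scale), with the line where the scaled signals are equal; triangles are probes above background on 1 array only and squares on neither. Bright probes run along the line or just above it, Psmb2 lies below it near 3657 and 7700, and Psmd13 is the triangle far above it.

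The activators and regulators had 3 of 5 members above the median of all genes and a median of 0.32. Psmf1, which encodes the inhibitor PI31, read 534 in MARVELD1 cells and 235 in empty vector cells, a difference of 1.31 or 2.48-fold higher, the highest of the class. A second 3' probe of Psmf1 read 112 and 58.0 (1.08), and the probe farthest 5' read 299 and 358 (-0.13). Psme4, which encodes the activator PA200, read 20696 in MARVELD1 cells and 14703 in empty vector cells (0.62) and 1697 and 1547 from a second probe (0.26). Its probe A_52_P111438, farther 5', was not above background in MARVELD1 cells, at 7.89, and read 60.0 in empty vector cells, a bound of -0.61, and its remaining probe was not above background on either array. Psme1 and Psme2, the subunits of the interferon-inducible cap PA28, read 13659 and 13443 in MARVELD1 cells and 11940 and 12995 in empty vector cells (0.32 and 0.18, with -0.09 from the second Psme2 probe). Psme1 was at -0.04 after normexp correction. Psme3, the nuclear form of the cap, was the lowest, at 814 in MARVELD1 cells and 867 in empty vector cells (0.04).

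The sign of this class relative to all genes depended on the setting. Relative to the median of all genes it was 0.13 here, -0.034 after quantile normalization, -0.050 after normexp, and -0.059 where every detected probe of a gene was averaged. The class holds 5 genes, and Psmf1 was the only one of them past 2-fold.

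The assembly chaperones had 3 of 7 members above the median of all genes and a median of 0.16. Psmg2, which encodes PAC2 of the PAC1 and PAC2 pair that builds the alpha ring, read 5513 in MARVELD1 cells and 3708 in empty vector cells (0.70), the highest of the class, with -0.03 from its 5' probe at 1215 and 1358. Its partner Psmg1 read 2298 in MARVELD1 cells and 2240 in empty vector cells (0.16). Psmg3 and Psmg4, which form the other chaperone pair of the alpha ring, had opposite signs: Psmg3 read 3465 in MARVELD1 cells and 2642 in empty vector cells (0.52), and Psmg4 5263 and 6141 (-0.10), the lowest of the class. Of the chaperones of the ATPase ring, Psmd9 read 2042 in MARVELD1 cells and 1690 in empty vector cells (0.40, and 0.06 from the 5' probe), Psmd5 5502 and 5968 (0.01), and Psmd10 814 and 856 (0.05). Psmc3ip, no proteasome gene, read 1111 in MARVELD1 cells and 715 in empty vector cells (0.76, and 0.43 from its other probe).

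The position of a probe along the gene moved with its value. In 17 members, Psmc3ip included, at least 2 probes were measured on both arrays, and the most 5' probe gave the lower difference in 15 of them (88.2%), by a median of -0.36. Without Psmc3ip it did so in 14 of 16 (87.5%). Over all genes with such probes the 5' probe was lower in 66.4% of 5455, by a median of -0.23. The median at the 3' probe was 0.48 in members and 0.24 in all such genes, and at the 5' probe 0.03 in members and 0.01 in all such genes. In 8 of the 17 (47.1%) the 5' and 3' probes had opposite signs: Psmc5, Psmd12, Psmf1, Psmg2, Psmd14, Psmd2, Psmd7 and Psme2. Over all such genes 40.7% did, so this count is near the background. The gap ran from -1.28 in Psmc5 to 0.65 in Psmc2, which with Psmc6 (0.09) made the 2 exceptions. In all 17 but Psmf1, Psmd4 and Psmc6 the 5' probe was also the dimmer one. In Psmd2, for example, the 5' and 3' probes read 1539 and 28212 in MARVELD1 cells. The parts of position and signal in this gap were not tested. In Psmc2, Psmc6 and Psmd4, 1 of the 2 probes is filed under a cDNA record and not under the gene's RefSeq transcript.

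Probes at least 500 bases apart gave much the same, with the 5' probe lower in 13 of 15 members and in 67.3% of 4677 genes. Of the member probes measured on both arrays, 24 cross a junction, with a median of 0.16, and 39 lie in 1 block, with a median of 0.40. The same split was not made over all genes. The 5' probes of Psmd12, Psmg2 and Psmc5 are among the 24, so it is not separate from the gap between ends. The part of this gap between the ends of genes in the members' shift was not tested. The 5' probes of Psmd7 and Psme4 that were above background in empty vector cells only are not among these 17 pairs, since just a bound is known for them.

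**Figure D3:**
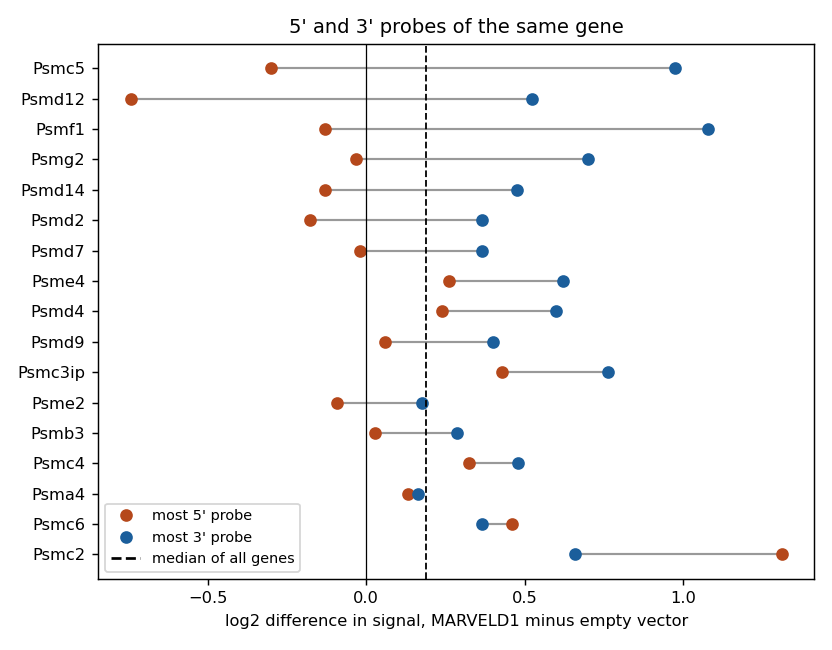
Log2 difference in signal (MARVELD1 minus empty vector, horizontal axis) at the most 5' and the most 3' probe of the 17 members with both measured (Psmc3ip, not a subunit, among them), joined by a line per gene; the dashed line is the median of all genes. The 3' point lies right of the 5' point in 15 genes, and the 5' points centre on 0.03.

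Partners of the proteasome had values near those of its regulatory particle. Of 11 proteasome-associated proteins 10 were detected, with a median of 0.57, and 5 were higher past 1.5-fold and 0 lower, where 19.4% of all genes were higher and 8.96% lower; these counts were not repeated under other scalings. Adrm1, a ubiquitin receptor of the base, read 7272 in MARVELD1 cells and 4672 in empty vector cells (0.77), but its second probe read 732 and 1549 (-0.95). Uchl5, the deubiquitinase that Adrm1 recruits, read 18206 in MARVELD1 cells and 12107 in empty vector cells (0.72). The lowest were Akirin2, needed for nuclear import of proteasomes, at 4800 in MARVELD1 cells and 5632 in empty vector cells (-0.10), and Sem1, a small lid subunit whose name falls outside the rule, at 61730 and 62680 (0.11).

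The interferon-inducible catalytic subunits had a median of 0.38 over 3 genes. Psmb10 read 3628 in MARVELD1 cells and 2497 in empty vector cells (0.67), Psmb8 79.9 and 66.9 (0.38), and Psmb9 198 and 249 (-0.20). The 9 detected genes of MHC class I presentation, which uses proteasome products, had a median of -0.01, with the peptide transporter Tap1 lowest at 86.2 in MARVELD1 cells and 183 in empty vector cells (-0.96).

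Genes upstream of the proteasome were nearer to the median of all genes. The 6 detected shuttle factors, which carry ubiquitinated proteins to the proteasome, had a median of 0.06, the 9 genes of p97 and its cofactors 0.30, and the 6 genes of ubiquitin and its activating enzymes 0.25. The 12 genes of NRF1 and its processing had a median of 0.05. Nfe2l1 itself was the highest, at 12806 in MARVELD1 cells and 9480 in empty vector cells (0.56), and Keap1, an adaptor for degradation of the related factor NRF2, the lowest at 655 and 1243 (-0.80).

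Lists outside the proteasome were also above the median of all genes, the first 4 given here by more and the ribosomal proteins by less than the 0.23 of the proteasome genes. The COP9 signalosome and eIF3, complexes built on the same plan as the lid, had medians of 0.56 each over 9 and 13 genes. The 15 genes of chaperonin and prefoldin had a median of 0.57, the 11 heat shock genes 0.46 and the 79 cytosolic ribosomal proteins 0.36. Past 2-fold higher in these lists were Eif3d (1.02) of eIF3 and Rpl10 (1.02) of the ribosomal proteins, where 5.39% of all genes were higher.

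**Figure D4:**
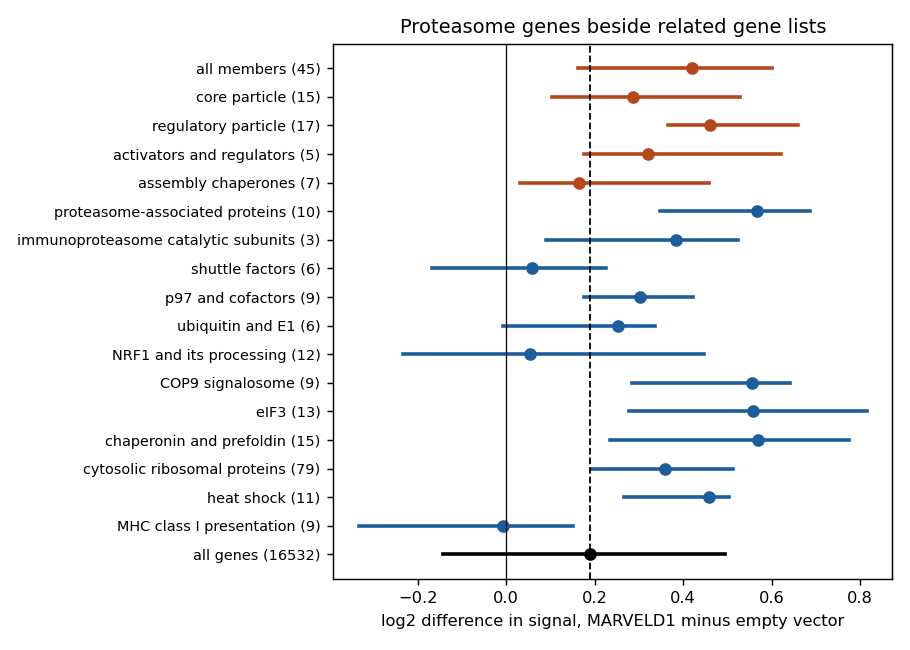
Median (point) and quartiles (bar) of the log2 difference in signal (MARVELD1 minus empty vector, horizontal axis) for proteasome genes, in red, and related lists, in blue, with the number of detected genes; all genes are in black and their median of 0.19 is dashed. The regulatory particle at 0.46 lies among eIF3 and the COP9 signalosome (0.56 each), the heat shock genes (0.46) and the ribosomal proteins (0.36).

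The antioxidant response element core TGANNNNGC, to which NRF1 binds with small Maf proteins, was searched on both strands of RefSeq promoters (assembly GRCm38.p6, 250 bases before to 50 after the start). It was in 21 of the 38 member promoters found in that table (55.3%) and in 11188 of 27025 promoters of all genes (41.4%). A match is a description of letters and not a site of binding.

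**Figure D5:**
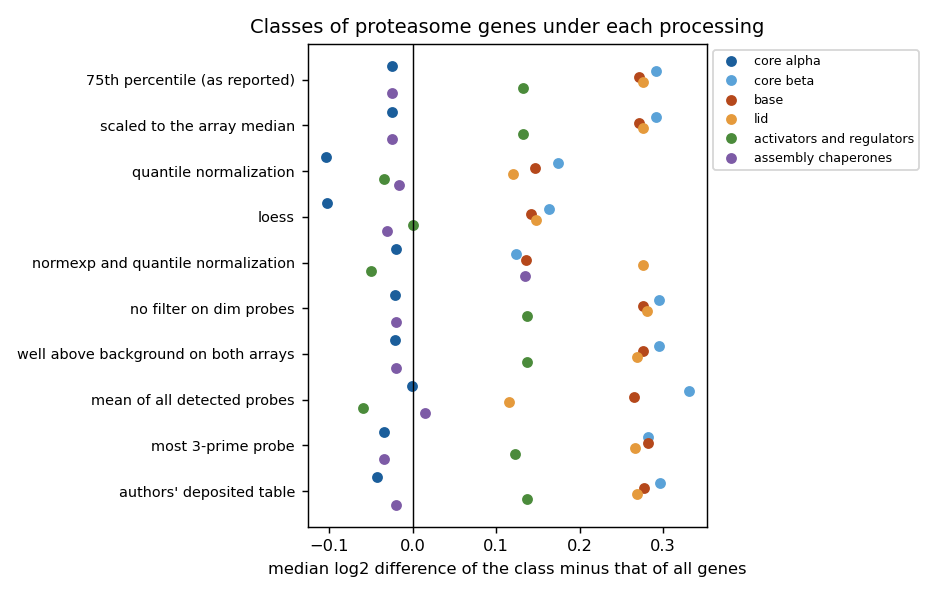
Median log2 difference of each class of proteasome genes minus that of all genes (horizontal axis) under each way of processing the arrays (rows). Core beta, base and lid lie right of 0 in every row shown, from 0.12 upward, and core alpha lies left of 0 in every row. The activators and regulators cross 0, and so do the assembly chaperones.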

How the data were processed

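Single-colour Agilent arrays of 2 NIH3T3 lines were used, 1 per line, both on 1 slide (positions 4 for MARVELD1 and 3 for the empty vector). The deposited intensity values are, per the file headers, processed signals of Agilent Feature Extraction 9.5.3.1, background-subtracted and detrended within the array, with no scaling between arrays. Each array had 43379 non-control spots for 41174 probes. A second file deposited by the authors holds a normalized intensity for 26851 probes, and in it each column equals the processed signal divided by 1 factor (123 for MARVELD1, 125 for the empty vector, within 1% for 99.7% and 99.6% of probes; column medians 2.94 and 3.11). How that factor was chosen is not given in the sources used here.

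Spots marked as outliers (223 on the MARVELD1 array, 116 on the empty vector array) were dropped, and 0 were saturated. Log2 signals were reduced by the array's 75th percentile, and spots of a probe averaged. Names came from a RefSeq table of GRCm38.p6: 24844 probes matched by accession, 6045 by symbol, 1810 by older name and 8475 not at all. Of 19713 named genes, 16532 were detected (well above background on 1 array or both), and the brightest probe stood for the gene. A gene dim on 1 array got a bound: the bright value over whichever was higher on the dim array, the probe's reading or the lowest well-measured signal.

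With 1 array per line no test was run. Any member could be named. Given in full were the highest and lowest of each class, those past 1.5-fold and those whose probes differed in sign or by over 0.54, with Marveld1 as the label check. From each comparison list the 2 highest and 2 lowest were open to naming, and those described are a selection. The members and lists were chosen with earlier results of these data known. Alternatives were array median, quantile and loess scaling, normexp (offset 50) with quantile normalization, other filters and other probe choices, and the deposited table. Computations were tested on simulated data. R 4.3.3, limma 3.58.1 and Python 3.11.15 were used.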

Additional observations from a re-analysis of the deposited data

How the results depend on the processing

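No paired analysis was possible because each line has only 1 array. The members stood 0.11 above the median of all genes after quantile normalization, against 0.23, and between 0.13 and 0.24 in the other settings. Past 2-fold higher, 1 member, Psmf1, was counted when both arrays had to be above background and with the authors' deposited table. There 4.43% and 3.09% of all genes were higher, and Psmd13 had no value in either setting. With the mean of all probes and at 3-fold the 1 member was Psmd13, where 4.74% and 1.21% of all genes were higher. Past 2-fold lower, 1 member (Psmb2) was counted with array-median, quantile and loess scaling, and 2 (Psma6 and Psmb2) in the authors' table. The shares of all genes were 4.37%, 4.31%, 4.59% and 3.97% in the same order, so these counts are near the background. Past 1.5-fold higher, 7 were counted with array-median scaling, 6 with quantile, normexp and the authors' table, and 5 after loess, against 12. Of all genes 14.1% were higher with array-median scaling, 13.3% with quantile, 9.70% with normexp, 12.6% in the authors' table and 11.9% after loess, against 19.4%. Past 1.5-fold lower, 2 were counted with the mean of probes (Psmb2 and Psmd7) and with the authors' table (Psma6 and Psmb2), against 1. The shares of all genes were 9.15% and 11.2%, against 8.96%.

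Relative to all genes, core beta moved to 0.17 (quantile), 0.16 (loess) and 0.12 (normexp), base to 0.15, 0.14 and 0.14 in the same settings, and lid to 0.12 (quantile), 0.15 (loess) and 0.12 (mean of probes). The activators and regulators changed sign: -0.034 (quantile), -0.0002 (loess), -0.050 (normexp) and -0.059 (mean of probes). The assembly chaperones, at -0.025 relative to all genes, also changed sign, to 0.13 with normexp and 0.015 with the mean of probes. Of 403 single-gene values, 9 moved by 0.36 or more, the SD between spots over all repeated probes, and 129 by 0.12 or more, the SD of bright ones. Of them 44 changed sign, none in a gene past 1.5-fold. With the mean of probes Psmc5 stood at 0.34, Psmd12 at 0.12, Psmd7 at -0.88, Psme4 at 0.09, Psmf1 at 0.75 and Psmg2 at 0.33, with normexp Psmd13 at 1.73 and Psme1 at -0.04, and with the most 3' probe Psmd4 at 0.60. The cause was not tested. Restricting members to 38 with signals over 1000 on both arrays, added after seeing the data, gave 0.22. The genes they were set against were still all 16532, so this does not compare genes of like brightness. Probes that an accession assigns to a member under another name were planned, but none was found. Dim probes limit Psmd13, Psmf1, Psma8 and Psmb11 most.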
